A study of Mus musculus with 3 samples.

Results

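The genes described here encode the proteins of the mitochondrial ribosome, and the data are 2 lists of chromatin immunoprecipitation sequencing (ChIP-seq) peaks from mouse neural stem cells. Every gene whose symbol is Mrpl or Mrps followed by a number, and which either list names as the closest gene of a peak, was taken. This gave 74 of the 16428 genes named in the lists, 46 Mrpl genes and 28 Mrps genes, spread over 17 chromosomes. The Smad3 list named 71 of them and the JMJD3 list 61. The cells were wild type, came from the cerebral cortex of E12.5 embryos, and were grown as a culture with EGF (20 ng/ml) and FGF (10 ng/ml). Before either immunoprecipitation they had been exposed to TGFb (5 ng/ml) for 30 minutes. There was 1 library for Smad3 and 1 for JMJD3, all cells were treated, and the peak lists carry no read number, height or p-value. A value for untreated cells or for a replicate was therefore not analysed here, no test between conditions was possible, and the intervals below cover counting error only.

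Smad3 is a DNA-binding protein that enters the nucleus when the TGFb receptor is active. JMJD3, also called Kdm6b, is an enzyme that removes methyl groups from lysine 27 of histone H3. The mitochondrial ribosome makes the membrane proteins of the respiratory chain that the mitochondrial genome encodes, while its own proteins are all encoded in the nucleus, made in the cytoplasm and imported. The L in a symbol stands for the large subunit, which joins amino acids, and the S for the small subunit, which reads the messenger RNA. Symbols are older than the structures: the products of Mrps30 and Mrps18a have been placed in the large subunit, and that of Mrps36 in the oxoglutarate dehydrogenase complex. Counts by subunit below therefore follow the symbol. Factors known from other work to act at promoters of nuclear genes for mitochondrial proteins include NRF1, the ETS protein GABP, and YY1.

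Many of these promoters serve a gene on each strand, and the sequences shown first are those on which the account of single-factor genes turns. The stretch between the opposite starts is given for the 3 genes that the files credit with JMJD3 alone, and for the pair in which both genes encode mitochondrial ribosomal proteins. The sequences are from the RefSeq promoter table on GRCm38.p6, a later build than the mm9 of the peaks, and run 5′ to 3′ on the strand of the gene named first. Capitals mark the ETS core CCGGAAG on either strand, and all other letters are in lower case.

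Mrpl43 to Twnk (Peo1 in the files), chr19:45006443-45006557, minus strand: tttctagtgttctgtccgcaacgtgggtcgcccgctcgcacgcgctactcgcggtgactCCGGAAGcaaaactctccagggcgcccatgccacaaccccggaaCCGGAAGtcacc
Mrpl50 to Zfp189, chr4:49521084-49521175, minus strand: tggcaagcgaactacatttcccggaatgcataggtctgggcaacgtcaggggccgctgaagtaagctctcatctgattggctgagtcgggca
Mrps27 to Ptcd2, chr13:99344679-99344785, plus strand: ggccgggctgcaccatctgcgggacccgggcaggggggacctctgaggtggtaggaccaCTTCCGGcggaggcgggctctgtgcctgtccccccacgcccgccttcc
Mrpl46 to Mrps11, chr7:78783090-78783130, minus strand: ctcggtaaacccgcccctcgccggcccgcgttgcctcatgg

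A further pair shows promoters with no close opposite start, as the 250 bases before the start. Mrpl45, whose product ties the ribosome to the inner membrane, had both factors, and capitals mark 2 matches to the NRF1 core. Mrpl52 had Smad3 alone, and capitals mark 1 match to the ETS core.

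Mrpl45, chr11:97315466-97315715, plus strand: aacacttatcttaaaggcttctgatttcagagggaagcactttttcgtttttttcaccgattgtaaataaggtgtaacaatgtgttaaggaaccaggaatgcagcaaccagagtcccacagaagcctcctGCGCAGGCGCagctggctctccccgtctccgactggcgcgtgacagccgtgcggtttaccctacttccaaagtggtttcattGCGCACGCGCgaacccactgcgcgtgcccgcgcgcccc
Mrpl52, chr14:54426659-54426908, plus strand: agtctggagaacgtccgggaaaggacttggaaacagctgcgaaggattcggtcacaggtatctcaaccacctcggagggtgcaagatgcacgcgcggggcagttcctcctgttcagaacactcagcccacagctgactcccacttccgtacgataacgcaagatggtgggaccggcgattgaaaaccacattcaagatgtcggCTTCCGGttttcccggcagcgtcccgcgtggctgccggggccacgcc

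Nearly every mitochondrial ribosomal protein gene had a Smad3 peak at its promoter, and about 2 in 3 had a JMJD3 peak. A promoter peak is one that names the gene and has its midpoint within 1 kb of that gene's transcription start. By this rule 69 of the 74 genes had Smad3 (93.2%, exact 95% interval 84.9% to 97.8%), beside 73.1% of all named genes. For JMJD3 the count was 50 (67.6%, 55.7% to 78.0%), beside 57.1% of all named genes. Both factors were listed at 47 (63.5% beside 55.1%), Smad3 alone at 22 (29.7% beside 17.9%), JMJD3 alone at 3 (4.05% beside 1.95%) and neither at 2 (2.7% beside 25.0%). Named genes include many whose only peaks lie far from a start, which count among the genes with neither. Among genes with Smad3 the share that also had JMJD3 was 68.1% (47 of 69, 55.8% to 78.8%), and over all named genes it was 75.4%. Counted by name, both JMJD3 intervals, over all members and within members with Smad3, hold the share of all named genes. Neither share therefore stood apart from it under this rule at this number of genes. By location, described next, the interval over all members (62.8% to 83.8%) lay above the share of all named genes (59.5%). The interval within members with Smad3 (63.9% to 84.7%) still held it (78.4%).

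Each peak names 1 gene only, so a peak between a pair of genes on opposite strands is credited to the nearer start. The same members were therefore counted a second way, by location, in which a peak within 1 kb of the start counts whatever gene it names. By location 73 of 74 had Smad3 (98.6%, lower limit 92.7%, beside 74.5% of all named genes) and 55 had JMJD3 (74.3%, 62.8% to 83.8%, beside 59.5%). All 55 members with JMJD3 also had Smad3, so both factors stood at 74.3% beside 58.4%, and over all named genes 98.2% of those with JMJD3 had Smad3. Smad3 alone was left at 18 (24.3% beside 16.1%), JMJD3 alone at 0 (interval up to 4.86%, beside 1.09%), and neither at 1 (1.35% beside 24.4%). Among members with Smad3 the JMJD3 share was then 75.3% (63.9% to 84.7%), beside 78.4% over all named genes. A stricter count, of starts that a joined region covers, gave 72 members with Smad3 (97.3% beside 66.8%), 54 with JMJD3 (73.0% beside 54.7%) 0 with JMJD3 alone (beside 2.22%) and 2 with neither (2.7% beside 31.0%). Both factors covered 54 starts (73.0% beside 52.5%), and Smad3 alone 18 (24.3% beside 14.3%).

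**Figure D1:**
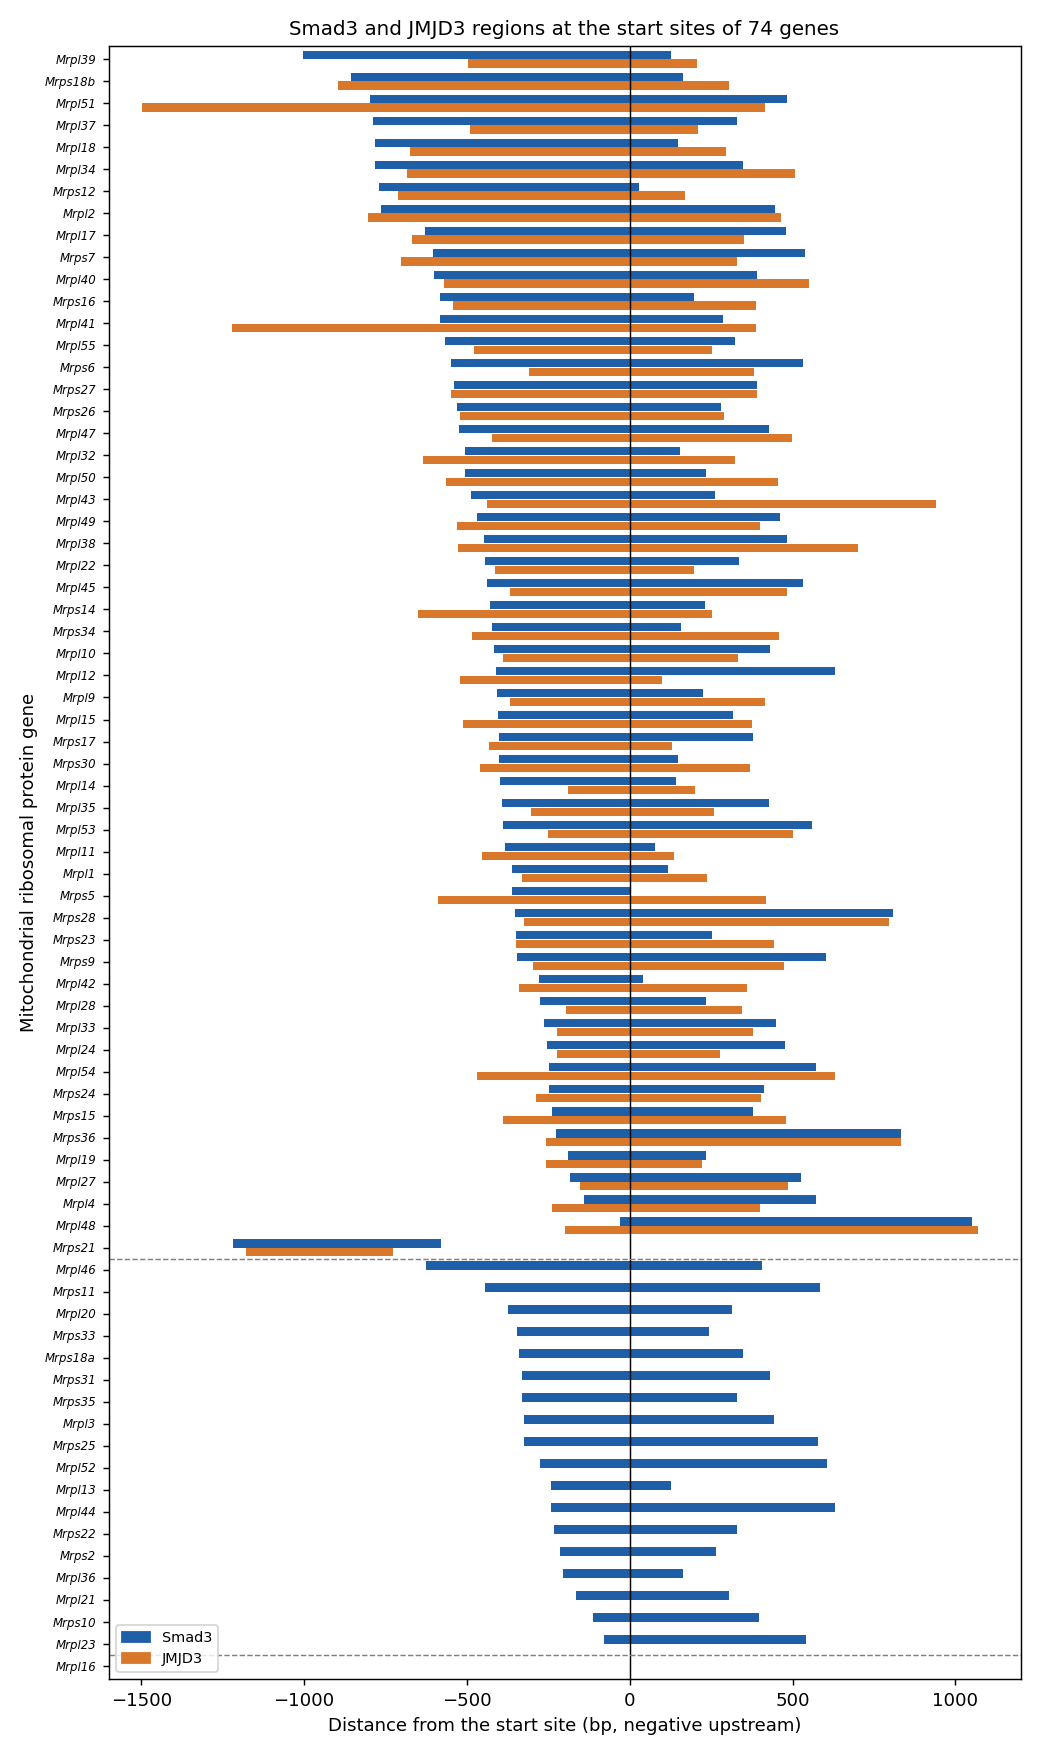
Smad3 (blue) and JMJD3 (orange) regions over the start of each of the 74 genes, drawn to scale in bp from the start, with negative values upstream. Rows above the upper dashed line are the 55 genes with both factors by location, rows below it the 18 with Smad3 alone, and the last row Mrpl16; for Mrps21 the regions shown lie upstream of the start, and for Mrpl48 they are those at the upstream of its 2 listed starts.

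The 3 genes credited with JMJD3 alone each had a Smad3 region over the start that named the neighbour. Mrpl43 encodes a large-subunit protein and starts 115 bp from Peo1, which encodes the mitochondrial DNA helicase Twinkle. Its start lay under a Smad3 region of 750 bp (chr19:45080671-45081420, mm9) and a JMJD3 region of 1381 bp (chr19:45079991-45081371). Mrpl50 starts 133 bp from Zfp189, a zinc finger gene, and had a Smad3 region of 740 bp (chr4:49533721-49534460) and a JMJD3 region of 1020 bp (chr4:49533501-49534520). Mrps27, whose product is a pentatricopeptide repeat protein of the small subunit, starts 107 bp from Ptcd2, itself a pentatricopeptide repeat gene. Its Smad3 region of 930 bp (chr13:100114201-100115130) and JMJD3 region of 940 bp (chr13:100114191-100115130) ended at the same base. In all 3 the regions of both factors reached across both starts and the stretch printed above, although for Mrpl50 the starts of the RefSeq table lie 92 bases apart rather than 133.

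The reverse credit was found at 5 of the 22 genes with Smad3 alone by name, whose JMJD3 region named the neighbour. Mrpl18, next to the chaperonin gene Tcp1 at 373 bp, had 930 bp of Smad3 and 970 bp of JMJD3 over its start. Mrpl51, next to the condensin gene Ncapd2 at 613 bp, had 1280 bp and 1910 bp, the widest regions over a member's start for both factors. Mrps18b, next to Ppp1r10 at 541 bp, had 1021 bp and 1200 bp, and Mrps7, next to Gga3 at 244 bp, had 1140 bp and 1031 bp. Mrpl48 is the one member for which the files list more than 1 start. The Smad3 and JMJD3 regions of 1080 bp and 1270 bp lay at its upstream start, 411 bp from the start of Rab6, and a further Smad3 region of 790 bp lay at the other start (chr7:107731171-107731960). Just upstream of the 1080 bp region lay a separate Smad3 region of 590 bp that named Mrpl48 (chr7:107756561-107757150). Mrpl13, with neither factor by name, lay 95 bp from Mtbp and had a Smad3 region of 370 bp and no JMJD3 region. Over all named genes the change of rule moved 332 of 2948 genes with Smad3 alone (11.3%) and 143 of 321 genes with JMJD3 alone (44.5%) to both.

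All 9 members that changed class had another named gene starting on the opposite strand, 95 to 613 bp away. Such a start within 1 kb was found for 21 of 74 members (28.4%, 18.5% to 40.1%), beside 11.1% of all named genes and 13 of 82 cytoplasmic ribosomal protein genes (15.9%, 8.72% to 25.6%). The partners were of varied function. Mrps12, a protein of the decoding centre, lay 209 bp from Sars2, the mitochondrial seryl-tRNA synthetase, and had 800 bp of Smad3 and 880 bp of JMJD3 over its start. Mrpl47 lay 307 bp from Ndufb5, a subunit of respiratory complex I, with 950 bp and 921 bp. Mrpl49 lay 215 bp from Fau, which encodes a cytoplasmic ribosomal protein, with 930 bp for each factor. The proteasome gene Psma2 lay 204 bp from Mrpl32 (660 bp and 960 bp), and the histone chaperone gene Hira 112 bp from Mrpl40 (990 bp and 1120 bp). The closest opposite starts were those of the endonuclease subunit genes Eme2 and Eme1, 32 bp from Mrps34 and 36 bp from Mrpl27. By location all 21 members with a partner had Smad3 and 18 had JMJD3 (85.7%, 63.7% to 97.0%), close to the 98.7% and 87.0% of all named genes with a partner. Of the 53 members without one, 52 had Smad3 (98.1%) and 37 had JMJD3 (69.8%, 55.7% to 81.7%), beside 71.5% and 56.0% of all named genes without one, the latter share lying inside the interval. Only a gene named by a peak can count as a partner. A peak at a shared promoter can therefore supply both the partner and the factor counted by location. The shares with a partner, and the counts split by partner, depend in part on that definition.

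The pair Mrpl46 and Mrps11 holds a gene for each subunit, with starts 41 bp apart. A single Smad3 region of 1030 bp covered both (chr7:85927571-85928600), and no JMJD3 peak lay within 1 kb of either. They are 2 of the 18 genes with Smad3 and no JMJD3 by location. The others were Mrpl3 with a Smad3 region of 770 bp, Mrpl13 with 370 bp, Mrpl20 with 690 bp, Mrpl21 with 470 bp, Mrpl23 with 620 bp, Mrpl36 with 370 bp, Mrpl44 with 870 bp and Mrpl52 with 880 bp. The small-subunit symbols among them were Mrps2 with 480 bp, Mrps10 with 510 bp, Mrps18a with 690 bp, Mrps22 with 560 bp, Mrps25 with 900 bp, Mrps31 with 760 bp, Mrps33 with 590 bp and Mrps35 with 660 bp. These products sit in different places: Mrpl3 belongs to the conserved core of the large subunit, Mrpl23 lies by the exit tunnel, and Mrpl44 resembles the RNase III family. The 18 Smad3 regions over their starts had a median width of 675 bp (370 to 1030 bp), and the 54 over starts with both factors 815 bp (320 to 1280 bp). The ranges overlapped over most of their length. Over all named genes the same medians were 590 bp and 830 bp.

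In these 18 genes JMJD3 was listed at a distance rather than just outside the limit. The nearest JMJD3 midpoint, whatever gene it named, lay between 4627 bp (Mrpl3) and 108319 bp (Mrpl36) from the start, with a median of 26800 bp. Only Mrpl3 and Mrps33, at 4785 bp, had one within 5 kb. These distances were not computed for other genes with Smad3 alone, so whether they are particular to these 18 is not known. By location JMJD3 was listed at 36 of 46 Mrpl genes (78.3%, 63.6% to 89.1%) and 19 of 28 Mrps genes (67.9%, 47.6% to 84.1%), shares whose intervals overlapped.

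Mrpl16, which encodes a conserved protein of the large subunit, was the one member with neither factor by location. By covered start, with the start that the lists give, Mrps21 joined it. The nearest Smad3 peak to the Mrpl16 start lay 37512 bp away and the nearest JMJD3 peak 7116 bp away. Mrps21 was the member nearest the 1 kb limit from inside. Its Smad3 peak of 640 bp (chr3:95675121-95675760) and JMJD3 peak of 451 bp (chr3:95675271-95675721) had their midpoints at -898 bp and -954 bp, upstream of the start in the files, and neither covered it. Placed by the shift between builds at Mrpl9 and Mrpl24 on the same chromosome, the RefSeq start of Mrps21 would fall under both peaks. That Mrps21 counts as uncovered thus rests on the start that the lists give. Outside the limit, the closest JMJD3 peak that named a member without a JMJD3 promoter peak lay at 4178 bp (Mrpl48), and the closest such Smad3 peak at 8652 bp (Mrps27).

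The median widths of these promoter regions were close to those of all named genes. A region joins peaks of the same list with at most 10 bp from the end of one to the start of the next. By name the median Smad3 region was 780 bp (69 genes, 250 to 1280 bp, 95% interval of the median 710 to 870 bp), beside 760 bp over all named genes with one. The median JMJD3 region was 800 bp (50 genes, 391 to 1610 bp, 700 to 921 bp), beside 860 bp. Of all genes with a promoter peak, 12.4% had a Smad3 region wider than that of every member and 6.08% a JMJD3 region wider than that of every member. In the 47 genes with both by name, Smad3 minus JMJD3 width had a median of -30 bp (-740 to 429 bp, interval -89 to 70 bp), beside -59 bp over all named genes. JMJD3 was wider in 25 of them, Smad3 in 20, and 2 were equal.

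**Figure D2:**
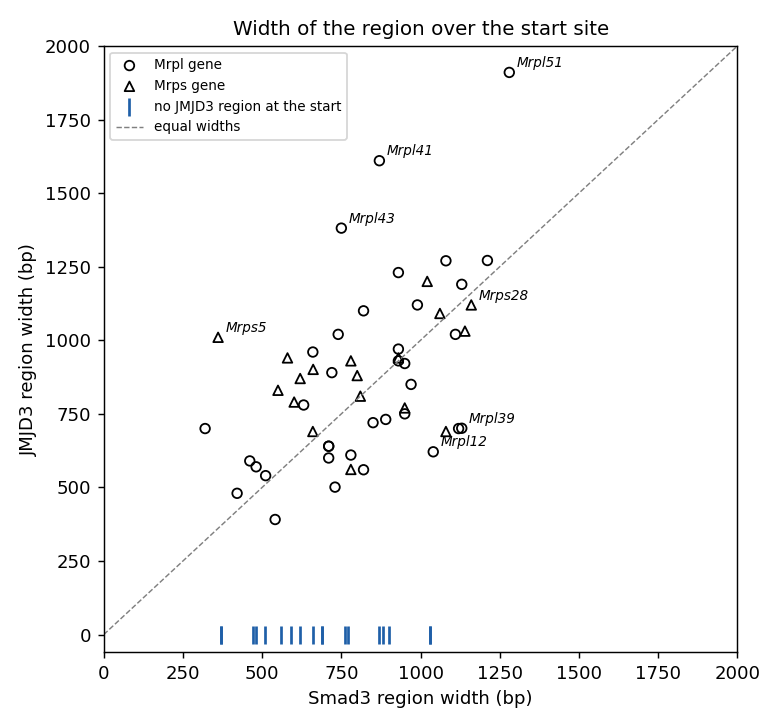
Width in bp of the Smad3 region (x axis) and JMJD3 region (y axis) over the start of the 54 genes with both, with circles for Mrpl genes and triangles for Mrps genes; blue ticks along the bottom are the 18 genes with Smad3 alone. Points fall on both sides of the dashed line of equal widths, and Mrpl51, Mrpl41 and Mrpl43 have the widest JMJD3 regions.

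For Smad3 the widest regions by name were at Mrpl51 (1280 bp), Mrpl2 (1211 bp), Mrps28 (1160 bp), Mrps7 (1140 bp), Mrpl34 and Mrpl39 (1130 bp each), Mrpl37 (1120 bp), Mrpl17 (1110 bp), Mrps6 (1080 bp) and Mrps36 (1061 bp). For JMJD3 they were at Mrpl41 (1610 bp), Mrpl43 (1381 bp), Mrpl2 (1271 bp), Mrpl38 (1230 bp), Mrpl34 (1190 bp), Mrpl40 and Mrps28 (1120 bp each), Mrpl54 (1100 bp), Mrps36 (1091 bp), and Mrpl17 and Mrpl50 (1020 bp each). Mrpl2, Mrpl17, Mrpl34, Mrps28 and Mrps36 stood in both groups. Mrpl2, a core protein at the peptidyl transferase centre, was covered from chr17:46782431 to 46783641 by Smad3 and from 46782391 to 46783661 by JMJD3.

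At the narrow end by name, Mrpl14 and Mrpl19 stood in both groups. The narrowest Smad3 regions were at Mrpl14 (250 bp), Mrps5 (361 bp), Mrpl36 (370 bp), Mrpl19 (421 bp) and Mrpl11 (461 bp). Mrpl11 encodes a protein of the stalk where translation factors dock. The value for Mrpl14 is again one of credit, since a further Smad3 region of 541 bp covered its start under the name of Tmem63b, 153 bp away. The narrowest JMJD3 regions were at Mrpl14 (391 bp), Mrps21 (451 bp), Mrpl19 (480 bp), Mrpl24 (501 bp) and Mrpl28 (540 bp). By location the widest regions at Mrpl14 were 771 bp for Smad3 and 911 bp for JMJD3, so its rank for both factors holds by name only.

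At some genes the widths of the 2 factors differed widely. Mrpl41 had 870 bp of Smad3 and 1610 bp of JMJD3, and its opposite partner Pnpla7 starts 934 bp away. Mrps5 had 361 bp and 1010 bp, its Smad3 region ending at the start itself. In the other direction Mrpl39 had 1130 bp of Smad3 and 701 bp of JMJD3, Mrpl37 1120 bp and 700 bp, and the stalk protein gene Mrpl12 1040 bp and 621 bp. Mrpl39 had a further JMJD3 promoter peak with its midpoint at -854 bp. That midpoint lay outside the 701 bp region but within the reach of the Smad3 region. With 1 library each, differences of this size have no replicate check.

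Both factors lay on the same stretch of DNA, centred on the start. In the 54 genes whose start both covered, a median of 93.75% of the Smad3 region and 85.35% of the JMJD3 region was shared. The Smad3 region lay wholly inside the JMJD3 region in 19 genes and the reverse held in 13. These overlaps were computed for the members only, so whether they differ from other genes is not known. The Smad3 region reached a median of 395.5 bp upstream and 363 bp downstream of the start, and the JMJD3 region 457.5 bp and 383 bp. Over all named genes these medians were 405 bp and 335 bp for Smad3, and 473 bp and 362 bp for JMJD3. Of 112 Smad3 promoter peaks 49.1% had their midpoint upstream, beside 48.8% over all named genes. Of 63 JMJD3 promoter peaks 50.8% had it upstream, beside 55.7%.

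Coverage by distance showed the same sharp placement. At the start 97.3% of members lay under Smad3 and 73.0% under JMJD3. At 200 bp upstream the shares were 89.2% and 68.9%, and at 500 bp downstream 27.0% and 10.8%. At 1000 bp downstream 1.35% of members were covered by each factor, which is 1 gene, Mrpl48. Over all named genes 12.2% and 6.96% were still covered there.

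**Figure D3:**
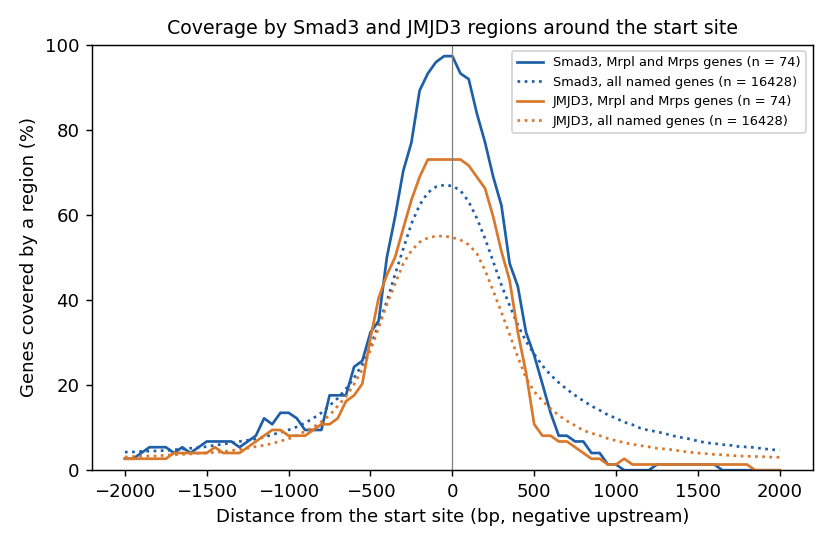
Percent of genes whose DNA at each distance from the start (bp, negative upstream) lies under a Smad3 (blue) or JMJD3 (orange) region, for the 74 mitochondrial ribosomal protein genes (solid) and all 16428 named genes (dotted). The solid lines stand higher at the start, at 97.3% and 73.0%, and fall below the dotted lines from about 500 bp downstream onward.

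Compared with all named genes, a smaller share of the peaks of these genes lay beyond the promoter. Of 253 Smad3 peaks that named a member 44.3% were promoter peaks, beside 25.4% of all Smad3 peaks, and of 149 JMJD3 peaks 42.3%, beside 25.2%. The remaining peaks numbered 141 for Smad3 and 86 for JMJD3. They fell on 41 of the 74 genes, and 33 had none in either list (44.6%, 33.0% to 56.6%), beside 22.8% of all named genes. A gene with neither promoter peak by name is listed only through a peak beyond 1 kb. Such genes were 25.0% of all named genes and 2.7% of members, which widens both contrasts. Members were not compared with only those genes that have a promoter peak. Distant peaks were most numerous at a few members. Mrpl14 had 19 distant Smad3 peaks and 6 of JMJD3, Mrps23 16 and 7, Mrpl44 13 and 2, Mrps28 11 and 10, Mrpl48 9 and 3, and Mrps10 9 and 7. At Mrpl14 the widest of them, 1530 bp of Smad3 (chr17:45869901-45871430) and 1461 bp of JMJD3 (chr17:45869771-45871231), overlapped each other downstream of the gene's start. The widest distant Smad3 region of any member, 1751 bp upstream of Mrpl38 (chr11:116006331-116008081), overlapped JMJD3 regions of 481 bp and 780 bp. A distant peak carries the name of the nearest start, which need not be the gene it acts on.

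The remaining genes for mitochondrial translation had Smad3 by location wherever they were named, beside 74.5% of all named genes. Their JMJD3 counts are read against the 59.5% of all named genes. Of 6 further genes for mitoribosome proteins, 5 were named. Dap3 (1401 bp of Smad3, 1940 bp of JMJD3), Ptcd3 (781 bp and 1000 bp) and Aurkaip1 (831 bp and 830 bp) had both factors. Gadd45gip1 (330 bp) and Ict1 (820 bp), which encodes a peptidyl-tRNA hydrolase built into the large subunit, had Smad3 alone. By location all 15 genes for translation factors had Smad3 and 11 had JMJD3 (73.3%). Those with Smad3 alone were Mtrf1 (580 bp), Oxa1l (540 bp), Hemk1 (571 bp) and Pdf (801 bp), of which Oxa1l encodes the insertase that receives the new membrane proteins.

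Of 17 mitochondrial aminoacyl-tRNA synthetase genes, 16 were named. By location all 16 had Smad3 and 15 had JMJD3, the exception being Wars2 (781 bp of Smad3). Hars2 carried JMJD3 without Smad3 by name, and had an opposite partner, Hars, whose name the Smad3 peak over the shared promoter bore. Of 26 genes for mitochondrial ribosomal RNA and ribosome assembly 22 were named under the symbols used, and by location 22 had Smad3 and 14 JMJD3 (63.6%, near the share of all named genes). The transcription factor gene Tfam had both (870 bp and 810 bp), as did the mitochondrial RNA polymerase gene Polrmt (931 bp and 1140 bp), whereas the assembly GTPase gene Eral1 had 570 bp of Smad3 alone. Among the 82 genes named Rpl, Rplp, Rps or Rpsa, which encode cytoplasmic ribosomal proteins and some of their close copies, 80 had Smad3 (97.6%) and 64 JMJD3 (78.0%) by location. Their median regions by name were 870 bp for either factor. No test set these lists against one another, and their intervals overlapped.

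**Figure D4:**
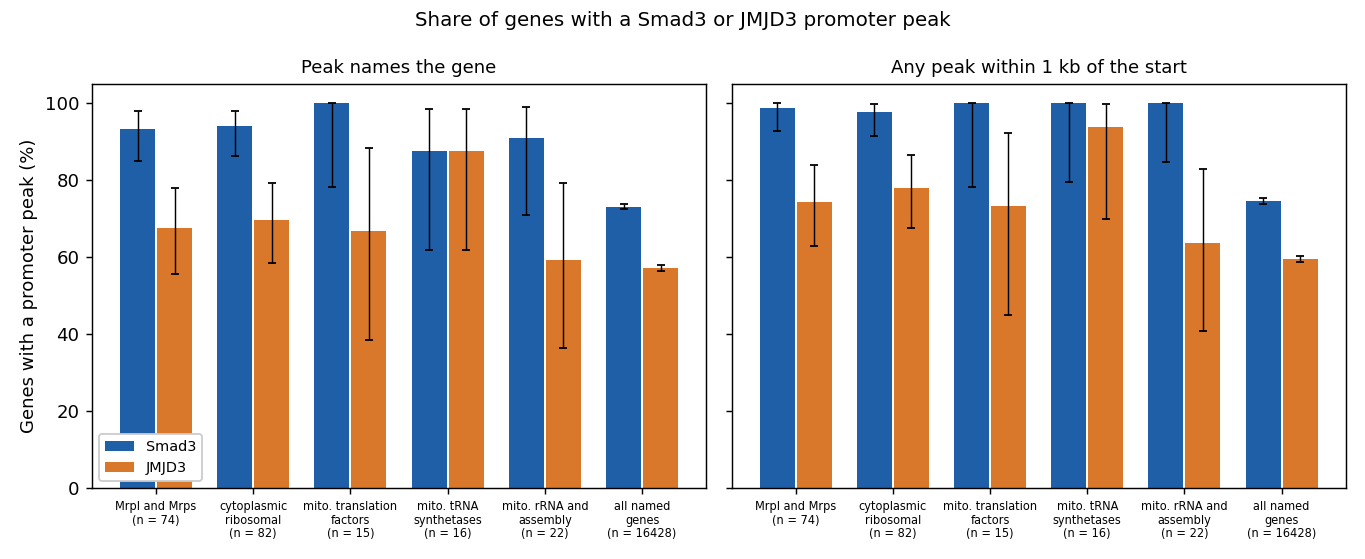
Percent of genes with a Smad3 (blue) or JMJD3 (orange) promoter peak in 6 gene groups, counted by the gene a peak names (left) and by any peak within 1 kb of the start (right), with exact 95% intervals as error bars. For the mitochondrial ribosomal protein genes the bars rise from 93.2% and 67.6% on the left to 98.6% and 74.3% on the right, and in each group shown the Smad3 bar is at least as high as the JMJD3 bar.

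Motif letters were counted in the RefSeq window from 250 bases before to 50 after the start, on both strands, for the 65 members with an entry (87.8%). The ETS core CCGGAAG was in 22 of them (33.8%), beside 9.12% of 27025 promoters and 18.2% of the promoters of genes with a Smad3 promoter peak. The NRF1 core, the motif in capitals in the Mrpl45 sequence, was in 11 (16.9% beside 4.78% and 10.9%). These were the promoters of Mrpl9, Mrpl12, Mrpl14, Mrpl17, Mrpl32, Mrpl39, Mrpl44, Mrpl45, Mrps9, Mrps21 and Mrps26. The YY1 core was in 5 (7.69% beside 0.899% and 2.12%), those of Mrpl35, Mrpl37, Mrps11, Mrps18a and Mrps27. The shares for all 3 were above those of both backgrounds.

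Letters known from Smad binding were not all of one kind. The Smad box CAGACA was in 12 promoters (18.5%), beside 21.0% of all and 15.4% of those of genes with Smad3. The palindrome GTCTAGAC was in 0, beside 0.211% and 0.22%. The GC-rich form GGCGCC was in 21 (32.3%), beside 12% and 23.0%, in windows whose median GC content was 58.0%, beside 52.7% and 61.7%. The Sp core GGGCGG was in 32 (49.2% beside 35.9% and 67.2%), NF-Y's CCAAT in 27 (41.5% beside 37.9% and 39.4%), the AP-1 letters TGANTCA in 3 (4.62% beside 7.93% and 4.39%) and the cyclic AMP response element TGACGTCA in 2 (3.08% beside 1.88% and 3.4%). Overlapping matches were rare: ETS with Sp in 2 promoters, and GGCGCC with ETS, YY1 and NF-Y in 1 each.

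Members with both factors and with Smad3 alone carried most of these letters at shares a few genes apart. The ETS core was in 15 of 47 with both and in 6 of 16 with Smad3 alone, the NRF1 core in 9 and 1, and GGCGCC in 15 and 6. The Sp core was in 27 of 47 (57.4%) and in 5 of 16 (31.2%), and the median number of CpG was 23 and 16.5. None of these differences was tested, and a match in the letters is not evidence that a factor is bound.

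Genes of the family outside the lists were also looked up. The RefSeq table holds 78 protein-coding genes of the Mrpl and Mrps symbols, of which 74 were named. Mrpl58 is the Ict1 of the files. The other three, Mrpl30, Mrpl57 and Mrps18c, were named by no peak, and each has a neighbour on the opposite strand that was. Mitd1, beside Mrpl30, had 380 bp of Smad3 and 900 bp of JMJD3 at its promoter. The neighbour of Mrpl57, F630043A04Rik, now called Ska3, had 671 bp and 750 bp, and Helq, beside Mrps18c, had 410 bp of Smad3 and no JMJD3. Since the lists print no start for a gene they do not name, whether these regions cover the starts of Mrpl30, Mrpl57 and Mrps18c was not measured.

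Marker promoters were counted by name in the same way, as a description only, since a peak is not a measure of expression. Of 9 neural progenitor genes 8 had a promoter peak of Smad3, Prom1 being without, and 8 had one of JMJD3. Over all named genes the shares were 73.1% and 57.1%. Of 15 markers of neurons, oligodendrocytes, microglia, endothelium and blood, 13 were named, 5 had one of Smad3 and 3 one of JMJD3. Since most named genes have a promoter peak, these counts cannot check the label of the cells.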

How the data were processed

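Smad3 and JMJD3 peak lists of 1 library each were used, and no list of the input was used. CASAVA, Bowtie 0.12.7 and MACS 1.4 are the tools, and mm9 the build, per the submitters' processing notes; settings: not given in the sources used here. Per the file headers, the deposited rows hold each peak's position, the closest gene and its signed distance, with no score or count, so depth is unknown. Coordinates are 1-based. From them Python 3.11.15, pandas 2.3.3, numpy 2.4.6 and scipy 1.17.1 joined peaks at most 10 bp apart into regions (70562 for Smad3 from 98086 peaks, 45018 for JMJD3 from 63154), took a gene's widest promoter region, and computed exact Clopper-Pearson intervals and order-statistic intervals of medians. The counting was tested on simulated peaks. Counts by location and by covered start were added after the data were seen. Members and lists were chosen with earlier results of these data known. Named were the 10 widest and 5 narrowest regions, all genes with 1 factor or none, those near the limit or with another gene in the region, and those with most distant peaks; the remaining genes are given by counts. Alternatives covered the window, joining, list length, a stricter width, credit of peaks and gene type.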

Additional observations from a re-analysis of the deposited data

How the results depend on the processing

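Each of 8 results (counts of genes with Smad3, JMJD3, both or 1 alone, 2 median widths and the width difference) was recomputed under 10 or 11 settings. The width difference stayed negative in all, but the settings reuse the same peaks of the same genes. The interval of its main value (-89 to 70 bp) holds 0, so no direction is shown. Of 85 values, 74 stayed within the limits set and 11 moved. For a count the limit was 1.5 times the main count. For a median width it was the interval of the main median, 710 to 870 bp for Smad3 and 700 to 921 bp for JMJD3. For the width difference it was the interval from -89 to 70 bp. Without joining, the median width fell to 521 bp for Smad3 and 645 bp for JMJD3, and the difference became -141 bp. With the wider 50% of peaks of each list, JMJD3 was listed at 29 genes (39.2%, beside 37.5% of all named genes) and both at 24, the median JMJD3 width was 940 bp, and JMJD3 alone stood at 5. JMJD3 alone was 6 when the Smad3 list was shortened to the length of the JMJD3 list. That shortening lowered the Smad3 share of all named genes from 73.1% to 62.6%. For these 2 settings the shares of all named genes with both or with JMJD3 alone were not computed, so those counts have no background. JMJD3 alone was 0 by location, by covered start, or with any overlapping peak of the other list credited. The interval of the share with JMJD3 alone was 0.844% to 11.4% by name, and reached up to 4.86% by location and by covered start. Each interval held the share of all named genes (1.95%, 1.09% and 2.22%), so no direction can be read from these few genes. The counts by location and by covered start were added after the data were seen. No paired analysis was possible because each antibody had 1 library. Without read numbers, depth cannot be separated from the lengths of the lists, and a gene without a peak is below the unknown threshold of the list, not shown to be free of the factor. Width is a stand-in for enrichment.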
